A study of Drosophila melanogaster with 4 samples.

Results

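The regions described here are those enriched for mono-methylated lysine 4 of histone H3 (H3K4me1) on the X chromosome of Drosophila melanogaster. They were taken from the combined list of both ChIP-seq libraries as every enriched record placed on X, which gave 1547 of 8219 regions. The lists of the separate libraries placed 1410 of 7601 regions (replicate 1) and 1414 of 7401 regions (replicate 2) on X. The libraries came from wild-type Oregon-R embryos aged 14 to 16 h, with the antibody ab8895 (new lot 2), on formaldehyde-fixed chromatin of whole embryos, so the values average over all embryonic tissues. The labels give no sex of the embryos, and they do not say whether the 2 replicates were separate collections, so the spread between them may be technical. The 2 input libraries of genomic DNA were not analysed here, and X was set beside the autosomal arms 2L, 2R, 3L and 3R of the same lists.

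H3K4me1 marks enhancers and the flanks of active promoters, and in flies it is placed mainly by the methyltransferase Trithorax-related. The X is a large arm that is present as a pair in females and as a single copy in males. In males the MSL complex, a set of proteins with the roX RNAs, binds along the X, acetylates histone H4 and raises transcription from it. Genes on X include many regulators of the nervous system and of body patterning, and no region could be tied to any of them here because the gene table was on release 6 and the regions on release 5. X holds 2197 protein-coding genes in that table. Divided by the release 5 arm lengths this is 98.0 per Mb, against 120.5 per Mb on the autosomal arms. These densities mix the releases and are approximate.

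The X regions covered 8.57 Mb of the 22.4 Mb of the assembled arm in the combined list, or 38.2%, against 37.8% on 2R. As the mean of the replicate lists the covered share was 32.0% ± 1.25 on X and 33.0% ± 1.39 on 2R. It was 30.4% ± 1.49 on 3R, 29.3% ± 1.54 on 3L and 26.4% ± 1.70 on 2L (SD, n = 2 lists). Most of this spread was shared by the arms, since replicate 1 was the higher list on each. Within the lists 2R lay slightly above X, at 33.9% against 32.9% in replicate 1 and 32.0% against 31.1% in replicate 2. In regions per length X differed little from the autosomal arms, with 63.0 ± 0.126 regions per Mb on X and 61.5 ± 1.32 on the autosomal arms (SD, n = 2 lists). Per gene the gap was wider, since X had fewer of the counted genes per Mb of release 5 sequence. X had 64.3 ± 0.129 regions for every 100 protein-coding genes and the autosomal arms had 51.0 ± 1.10. The value was 50.4 ± 1.44 on 2L, 48.1 ± 0.868 on 2R, 55.7 ± 1.47 on 3L and 50.1 ± 0.728 on 3R, so X exceeded each arm by more than the spread between replicates. The gene numbers come from release 6, and the region numbers and arm lengths from release 5. No p-value is given for X against the autosomes here or below, because 2 lists allow no exact sign-flip p under 0.5.

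The widest X region of the combined list measured 54271 bp. The middle of the widths was the same as elsewhere, with a median of 3469 bp on X and 3476.5 bp on the autosomal arms in replicate 1, and of 3292.5 bp on X and 3298 bp on the autosomal arms in replicate 2. At the upper end, the 90th percentile was 10876 bp on X and 10006.5 bp on the autosomal arms in replicate 1, and 10043 bp on X and 9683 bp on the autosomal arms in replicate 2. Regions of at least 10 kb numbered 168 on X in replicate 1 (11.9% of its X regions, against 10.2% of that whole list), 143 in replicate 2 (10.1%, against 9.28% of that whole list) and 216 in the combined list (14.0%, against 12.4% of that whole list). These shares lie near the background of each list. These broad regions held 36.5% of the length covered on X in replicate 1, against 31.4% on the autosomal arms, and 32.5% in replicate 2, against 29.7% on the autosomal arms. By arm, the share of the covered length was 34.5% ± 2.80 on X (SD, n = 2 lists), while 2R had 33.6% ± 0.351, 3R had 32.5% ± 1.47, 3L had 28.7% ± 1.44 and 2L had 26.5% ± 1.42. Within the lists X lay above 2R in replicate 1 (33.9% on 2R) and below it in replicate 2 (33.4% on 2R). It lay above 3R in both, where 3R had 33.5% in replicate 1 and 31.4% in replicate 2. In the combined list, regions of at least 20 kb numbered 47 on X (3.038% of its regions, against 2.245% on the autosomal arms). They held 15.5% of the covered length of X, against 12.02% on the autosomal arms. The 378 X regions under 2 kb (24.43%, against 22.96%) held 6.41% of the length, against 6.66% on the autosomal arms.

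**Figure D1:**
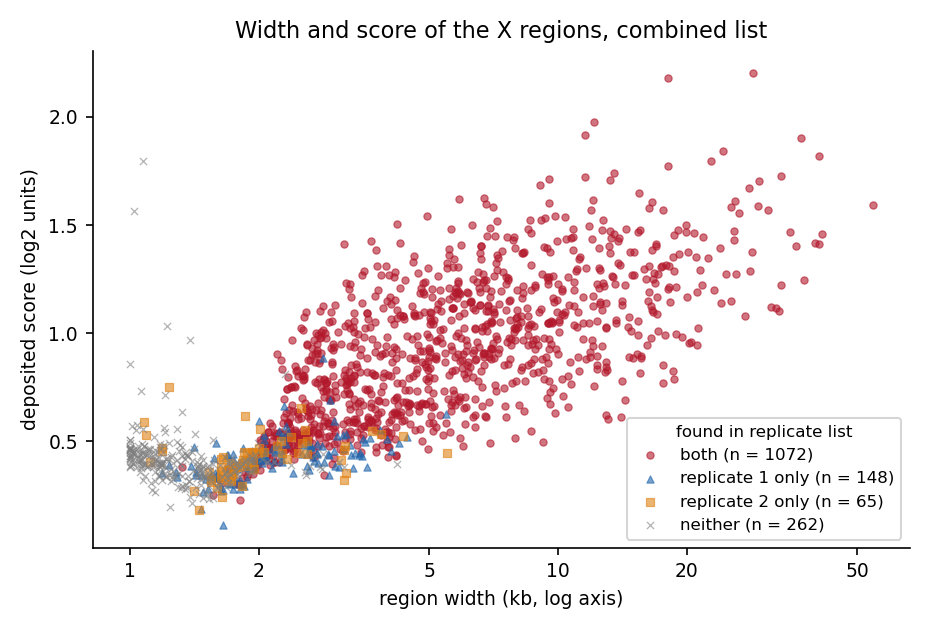
Each point is one of the 1547 X regions of the combined list, placed by its width in kb (log axis) and its deposited score in log2 units, and marked by the replicate lists in which it was found. Scores rose with width, and most regions found in neither list were short. All 216 X regions of at least 10 kb were found in both lists, as were all 798 autosomal regions of that width.

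The deposited score of a region behaved as the log2 of a ratio of 2 whole numbers times a constant of the list, so a difference of 1 is a doubling of that ratio. On X the score rose with width, with Spearman's rho of 0.83 across 1410 regions in replicate 1 and 0.81 across 1414 in replicate 2, and these regions share a library. X scores had a 10th percentile of 0.52, a median of 0.88 and a 90th percentile of 1.40 in replicate 1, and of 0.58, 0.90 and 1.39 in replicate 2. On the autosomal arms the same values were 0.44, 0.78 and 1.28 in replicate 1 and 0.50, 0.81 and 1.27 in replicate 2. In the replicate lists X was thus higher at the weak end by 0.080 and 0.083, in the middle by 0.10 and 0.099, and at the strong end by 0.12 and 0.11. In the combined list the median was 0.68 on X and 0.64 on the autosomal arms, a difference of 0.038, and there 2R, at 0.681, had a slightly higher median than X, at 0.678. The upper 10% of all regions of the large arms by score (background 10.0%) took in 15.1% of the X regions and 8.81% of the autosomal regions in replicate 1. In replicate 2 it took in 15.2% of the X regions and 8.74% of the autosomal regions, and in the combined list 13.8% of the X regions and 9.10% of the autosomal regions.

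Because score rises with width, X and the autosomal arms were set side by side within 5 width classes. X had the higher median in each class of both replicate lists. For regions under 2 kb the medians were 0.51 on X and 0.44 on the autosomal arms in replicate 1, and 0.60 on X and 0.50 on the autosomal arms in replicate 2. For regions of 5 to 10 kb they were 1.14 on X and 1.05 on the autosomal arms in replicate 1, and 1.154 on X and 1.073 on the autosomal arms in replicate 2. The difference was largest among regions of 20 kb and over, with 1.51 for 30 X regions and 1.35 for 97 autosomal regions in replicate 1, and 1.59 for 23 X regions and 1.39 for 78 autosomal regions in replicate 2. Averaged over the replicates, X minus autosomes was 0.084 ± 0.011 under 2 kb, 0.077 ± 0.014 at 2 to 5 kb, 0.090 ± 0.012 at 5 to 10 kb, 0.11 ± 0.040 at 10 to 20 kb and 0.18 ± 0.026 from 20 kb (SD, n = 2). X stood above each of the 4 autosomal arms in 10 of 10 classes of the replicate lists and in 14 of 15 when the combined list was added. The exception was the class of 2 to 5 kb in the combined list, where the median was 0.609 on X, 0.629 on 2R and 0.614 on 3R.

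**Figure D2:**
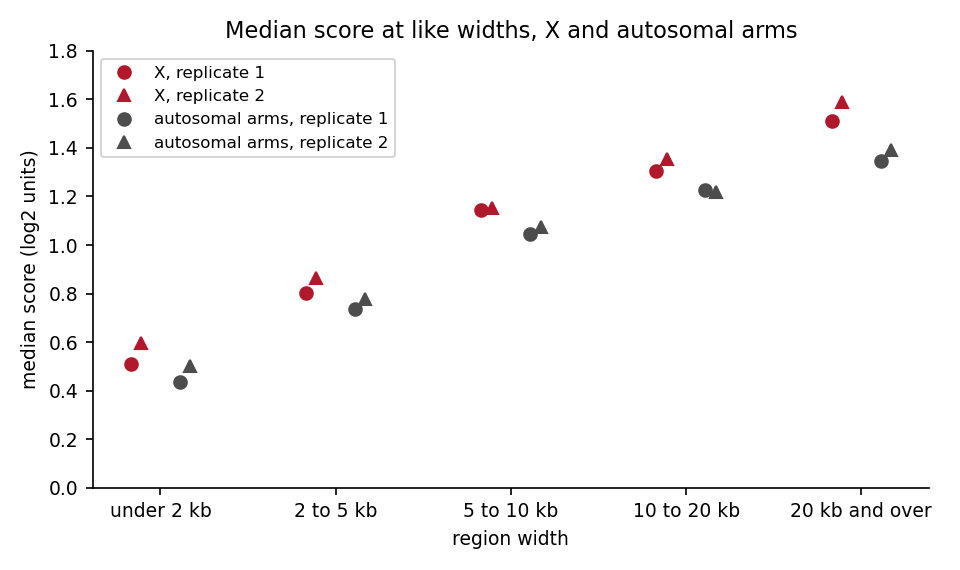
Median deposited score (log2 units) of regions in 5 width classes for X (left in each class) and the 4 autosomal arms together (right), with replicate 1 as circles and replicate 2 as triangles. X lies higher in each class of both lists, by 0.16 in replicate 1 and 0.20 in replicate 2 among regions of 20 kb and over.

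The lower edge of the scores moved with these differences. For regions under 2 kb the 10th percentile of the score was 0.41 on X and 0.33 on the autosomal arms in replicate 1, and 0.49 on X and 0.39 on the autosomal arms in replicate 2. The lowest score of any region was 0.23 on X and 0.095 on the autosomal arms in replicate 1, and 0.34 on X and 0.18 on the autosomal arms in replicate 2. These minima decide little, because the pooled autosomal arms hold more regions than X. In replicate 1 the minimum of 3R alone was 0.222, close to the 0.229 of X. The highest minimum of a single autosomal arm in replicate 2 was 0.258 (2L), against 0.341 for X. In the combined list the minimum was higher for 2R (0.117) than for X (0.113). By the 10th percentile, X regions under 2 kb had the higher lower edge in both replicate lists. The sources used here do not give the authors' threshold, and its part in the higher scores of X was not tested.

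The whole numbers behind the scores also differed between X and the autosomes. With the constant of each list removed, the score gave a ratio in lowest terms for all X regions of each list, 1410 by replicate 1, 1414 by replicate 2 and 1547 combined. The sources used here do not say what the terms count, and as reduced ratios they are no measure of depth. The 90th percentile of the denominator per kb was 102.9 on X and 138.5 on the autosomal arms in replicate 1, 92.3 on X and 124.6 on the autosomal arms in replicate 2, and 193.6 on X and 259.0 on the autosomal arms in the combined list. The ratio of X to the autosomes was thus 0.74 ± 0.0019 (SD, n = 2). The autosomal arms ran from 0.989 ± 0.0062 on 2R to 1.005 ± 0.0034 on 3L. The numerator per kb was lower on X by less, at 0.79 ± 0.0031 of the autosomal value, while the autosomal arms ran from 0.99 ± 0.00041 on 3L to 1.02 ± 0.0055 on 2R. Both terms were thus lower on X, the denominator by more than the numerator. The terms come from the scores themselves, so this last difference largely restates the higher scores of X and is no separate observation. Among regions of 20 kb and over the numerator stood at 0.94 of the autosomal value in replicate 1 and 0.92 in replicate 2, and the denominator at 0.78 and 0.80. The shortest class, under 2 kb, had numerators at 0.78 of the autosomal value in both lists and denominators at 0.75 and 0.73. The part of these lower terms in the higher scores was not tested.

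**Figure D3:**
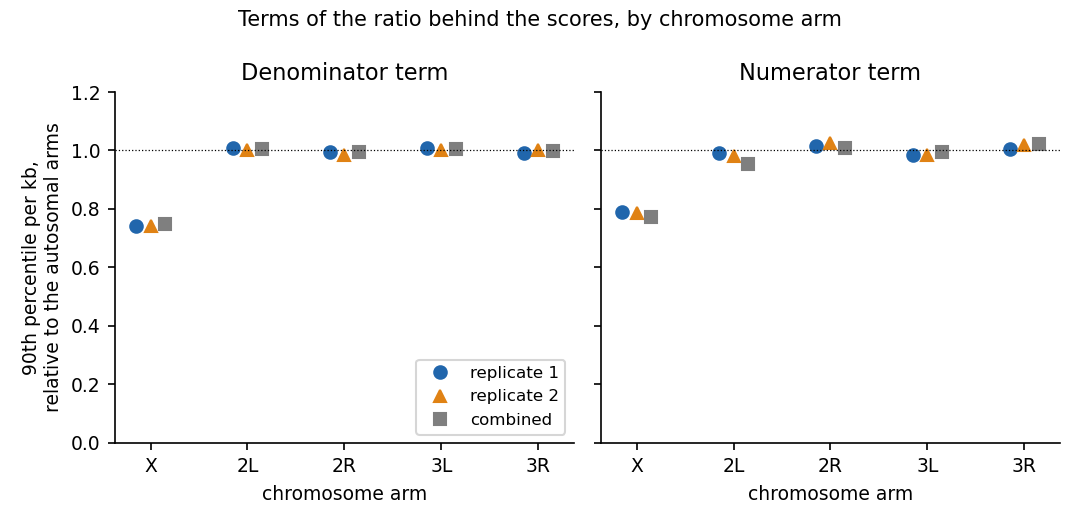
The 90th percentile of the denominator term (left) and the numerator term (right) per kb of region, in lowest terms, on each large arm relative to the 4 autosomal arms together (dotted line at 1), for replicate 1, replicate 2 and the combined list. X lies at 0.74 to 0.75 for the denominator and at 0.77 to 0.79 for the numerator, while the autosomal arms lie near 1.

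Both libraries marked much the same sequence of X. Sequence listed in both came to 6.53 Mb, which is 83.6% of the 7.82 Mb listed in at least one. Of the replicate 1 regions on X, 1241 of 1410 overlapped a replicate 2 region (88.0%, interval 86.2 to 89.7, against 87.9% of that whole list). Of the replicate 2 regions on X, 1326 of 1414 overlapped a replicate 1 region (93.8%, interval 92.4 to 94.98, against 95.3% of that whole list). The intervals are 95% exact Clopper-Pearson intervals, cover counting error only, and treat neighbouring regions as independent. Spearman's rho between the libraries, over the 980 X regions with exactly one partner each, reached 0.91 for score and 0.93 for width, as a description across regions. The median absolute difference in score of such a pair was 0.086, close to the 0.079 of 4400 autosomal pairs.

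In the combined list 1072 of the 1547 X regions were found in both replicate lists (69.3%, interval 66.9 to 71.6, against 72.5% of the whole list), and these held 90.2% of the covered length. The share depended on width. It was 26 of 378 under 2 kb (6.88%), 496 of 617 at 2 to 5 kb (80.4%), 334 of 336 at 5 to 10 kb (99.4%) and all of the 216 wider regions. On the autosomal arms the shares were 10.1% under 2 kb, 87.3% at 2 to 5 kb and 99.9% at 5 to 10 kb. All 653 autosomal regions of 10 to 20 kb and all 145 wider ones were found in both too, so this was not particular to X. Another 148 X regions were found in replicate 1 only (9.567%, against 9.892% of the whole list). In replicate 2 only, 65 were found (4.202%, against 3.382% of the whole list). The remaining 262 were found in neither (16.94%, against 14.25% of the whole list). Regions found in neither were short and weak, with medians of 1269.5 bp and 0.40, while those found in both had medians of 5094 bp and 0.90. The lists start at different widths. The shortest X region was 1001 bp in the combined list and 1306 bp in each replicate list. The class under 2 kb thus holds combined regions shorter than any X region of the replicate lists. The part of this floor in the shares was not tested. When the combined list was reduced to regions found in both, the median score of X minus that of the autosomes came to 0.098, close to the values of the replicate lists, against 0.038 in the whole combined list.

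The strongest X regions without a partner in the other library were short. In replicate 1 they were X:17797025-17799081 (score 1.06), X:17793776-17795459 (0.94) and X:3024610-3026441 (0.84). In replicate 2 they were X:8188903-8190233 (score 1.57), X:19755378-19756958 (1.12) and X:16460248-16462207 (0.97). Each measured 1331 to 2057 bp and overlapped a combined region with a lower score, of 0.89, 0.69 and 0.47 for replicate 1 and 1.23, 0.75 and 0.62 for replicate 2. The ratio of the strongest of them, at 8188903, was 13 to 5 in lowest terms.

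The 10 highest-scoring X regions of the combined list were domains of 11559 to 40619 bp, except for 1 short region. The leading region, X:2175406-2203883 (28478 bp), scored 2.20, with 2.30 in replicate 1 and 2.08 in replicate 2. The next, X:1831922-1849969 (18048 bp), scored 2.18, with 2.15 in replicate 1 and 2.22 in replicate 2. A strong neighbour stood 5993 bp further on at X:1855963-1892803, where 36841 bp scored 1.90, with 1.93 in replicate 1 and 1.90 in replicate 2. The order of the leading regions thus changed between libraries, and the first region of each list was the second of the other.

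Other strong domains were X:12466777-12478933 (1.98, with 1.99 in replicate 1 and 1.97 in replicate 2) and X:5777120-5801343 (1.84, with 1.85 in replicate 1 and 1.83 in replicate 2). At X:3636718-3648276 the score was 1.92, with 1.95 in replicate 1 and 1.86 in replicate 2; X:3660520-3678575 scored 1.77, with 1.88 in replicate 1 and 1.67 in replicate 2. At X:7583007-7605810 the score was 1.79, with 1.89 in replicate 1 and 1.65 in replicate 2. Replicate 1 was the higher of the 2 at each of these domains, and by more at the last 3. The region just outside the set, X:18533978-18547479, scored 1.74.

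The exception in the set was X:6464312-6465387, a region of 1076 bp with a score of 1.79 that overlapped no region of either replicate list. Its ratio in lowest terms was 11 to 3, and the other 9 regions had terms of at least 449. By rank it would be among the strongest on X, and by width it stood at 1489 of 1547. It was also shorter than the shortest X region of either replicate list, which measured 1306 bp.

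The 10 widest X regions summed to 395.3 kb, or 4.61% of the covered length of X, and all were found in both libraries. The widest, X:12607190-12661460 (54271 bp, score 1.59), was listed as 2 regions in replicate 1 and 3 in replicate 2, which covered 95.6% and 98.7% of it. Its largest part measured 49762 bp with a score of 1.68 in replicate 1 and 44723 bp with a score of 1.63 in replicate 2. A second domain, X:6868197-6909593 (41397 bp), was a single region in both libraries, with scores of 1.53 in replicate 1 and 1.38 in replicate 2. X:6733430-6774048 (40619 bp, score 1.82) ranked 4 by width and 7 by score. X:1855963-1892803, described above, was the other region in both sets.

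The remaining wide domains scored 1.22 to 1.47. X:17601432-17642063 measured 40632 bp with a score of 1.41, X:6152810-6192707 measured 39898 bp with 1.42, and X:1145329-1182889 measured 37561 bp with 1.25. X:2528218-2564188 measured 35971 bp with 1.40, X:10690012-10724839 measured 34828 bp with 1.47, and X:8770223-8803476 measured 33254 bp with 1.22. By score the last of these ranked 207 of 1547, so the widest regions were not all among the strongest. Replicate lists covered 90.5 to 99.9% of each of the 10 (replicate 1) and 92.5 to 99.7% (replicate 2). Replicate 2 divided more of them, listing 3 or 4 pieces for 7 of the 10, where replicate 1 listed at most 2. Next in width came X:2011948-2045122 with 33175 bp.

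Neighbouring regions were closer together on X. The median distance between neighbours was 2802 bp on X and 3439 bp on the autosomal arms in replicate 1, 2673 bp on X and 3389 bp on the autosomal arms in replicate 2, and 2327 bp on X and 3064 bp on the autosomal arms in the combined list. Among the autosomal arms the mean of the replicates ran from 3219 ± 32.5 bp on 2R to 3508.5 ± 36.1 bp on 3L, so X, at 2738 ± 91.2 bp, lay below each by more than the spread between replicates (SD, n = 2). Distances under 1 kb made up 25.7% on X and 22.8% on the autosomal arms in replicate 1, and 27.7% on X and 23.5% on the autosomal arms in replicate 2. Distances of 10 to 50 kb were fewer, at 16.7% on X and 19.8% on the autosomal arms in replicate 1, and 16.3% on X and 19.6% on the autosomal arms in replicate 2. The longest class, from 50 kb, was alike, with 5.15% ± 0.148 on X and 4.93% ± 0.321 on the autosomal arms.

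**Figure D4:**
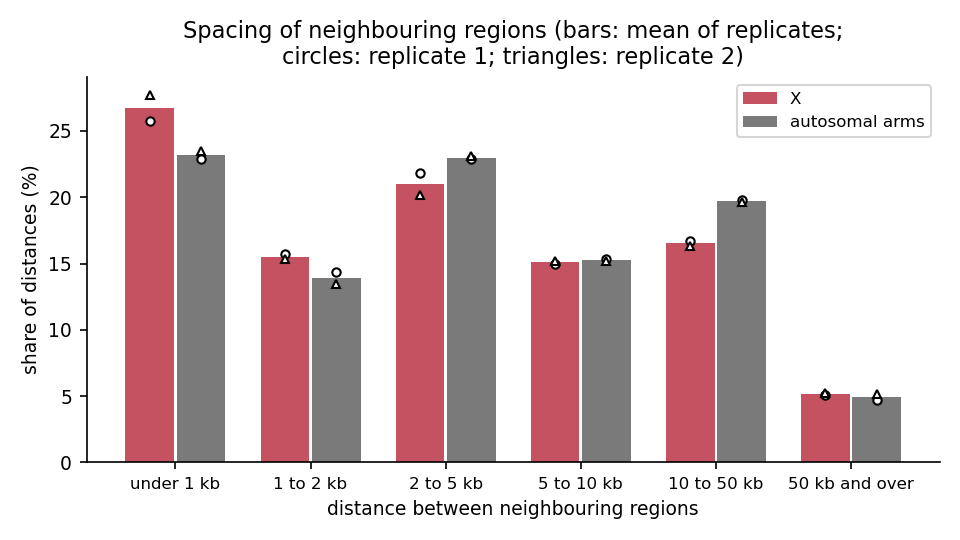
Share of the distances between neighbouring regions (%) in 6 classes of distance, for X (left bar) and the 4 autosomal arms together (right bar), as the mean of both replicate lists, with replicate 1 as circles and replicate 2 as triangles. X had more distances under 1 kb (26.7%, against 23.2% on the autosomal arms), fewer of 10 to 50 kb, and about as many from 50 kb.

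Close neighbours formed runs. When regions less than 1 kb apart were taken as one run, 789 of the 1547 X regions (51.0%) of the combined list lay in 315 runs of at least 2, against 43.4% of the autosomal regions. In replicate 1 the share was 45.5% on X and 40.5% on the autosomal arms, and in replicate 2 it was 48.9% on X and 41.3% on the autosomal arms. The run with most members was X:4554939-4598887, with 9 regions over 43949 bp of which 93.2% was covered. Its scores ran from 0.39 to 1.495, and replicate 1 listed 10 regions there and replicate 2 listed 8. The run X:8525908-8585874 held 7 regions, covered 96.1% of 59967 bp and so exceeded the widest single region in span, with scores of 0.44 to 1.27. A further run of 7, X:2047260-2081621, covered 92.0% of 34362 bp with scores of 0.44 to 1.36. Each of these runs thus joined weak and strong regions. Scores of neighbours on X had Spearman's rho of 0.17 (replicate 1), 0.20 (replicate 2) and 0.21 (combined list), a weak relation that on the autosomal arms lay between 0.13 and 0.22.

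Coverage along X was uneven. Over the 22 full windows of 1 Mb the covered share, as the mean of both replicates, ran from 14.0% to 44.2%. Windows had an SD of 8.17 among themselves, against a median of 1.201 between the libraries. By this mean the highest windows were X:1000001-2000000 (44.6% in replicate 1 and 43.9% in replicate 2), X:8000001-9000000 (44.8% and 42.7%) and X:2000001-3000000 (42.5% and 40.9%). The lowest were X:21000001-22000000 (14.3% in replicate 1 and 13.8% in replicate 2) and X:20000001-21000000 (18.2% and 17.9%), next to the centromere, and X:14000001-15000000 (20.5% and 18.4%), in the interior of the arm. The last 422827 bp of the arm had 10.5% in replicate 1 and 8.44% in replicate 2. The change at the proximal end was abrupt: the window just before these, X:19000001-20000000, was covered to 40.9% in replicate 1 and 39.6% in replicate 2.

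**Figure D5:**
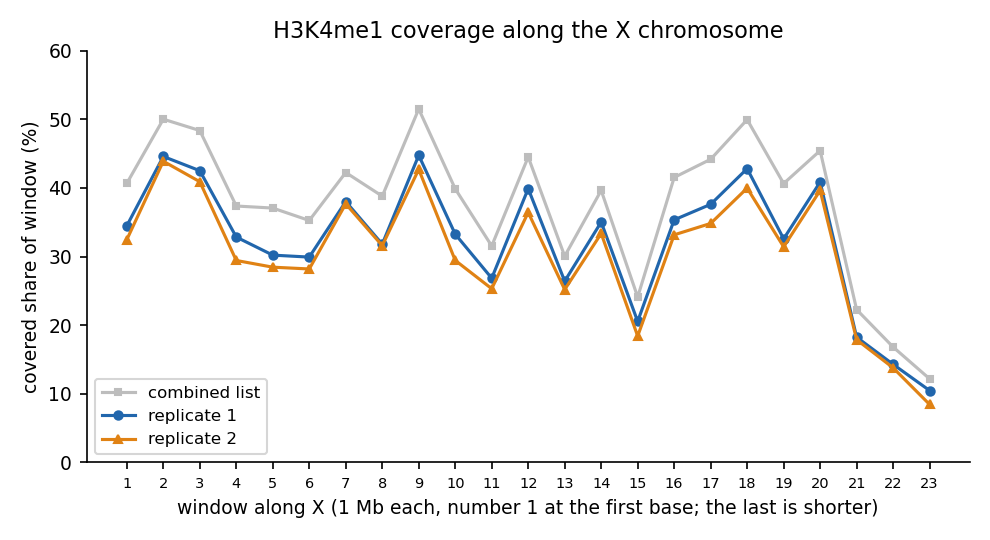
Covered share (%) of each 1 Mb window of X in replicate 1, replicate 2 and the combined list, with windows numbered from the first base of the arm. The mean of the replicates is highest at windows 2, 9 and 3, while the combined list is highest at windows 9, 2 and 18, and there is a fall along the arm from 40.2% ± 0.870 in window 20 to 18.1% ± 0.258 in window 21 (mean ± SD, n = 2).

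Well covered windows differed in how they were filled. In the combined list the window X:15000001-16000000 had the most regions, 96, whose medians were 3209 bp and 0.65, and 41.5% was covered. X:19000001-20000000 had 65 regions whose medians were 5852 bp and 0.93, and 45.4% was covered. It held 17 regions of the upper 10% by score by replicate 1, 19 by replicate 2 and 20 by the combined list, the most of any window in the combined list. The window X:1000001-2000000 held 17 such regions by replicate 1, 21 by replicate 2 and 15 by the combined list, so it held the most in replicate 2 and as many as X:19000001-20000000 in replicate 1. Of the 10 strongest X regions, 9 started before 8 Mb, a limit chosen after the values were seen. These 9 include the short region X:6464312-6465387, which overlapped no region of either replicate list. Over the whole upper 10% the first 8 windows held 38.5% of these X regions in the combined list, against 36.1% of all X regions. In replicate 1 they held 42.3%, against 36.2% of all X regions, and in replicate 2 40.5%, against 36.5%.

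X:21505973-21843216 (337.2 kb), X:20663065-20897754 (234.7 kb) and X:14162788-14373918 (211.1 kb) held no region of the combined list. The same places led in replicate 1, with 337.5, 234.7 and 213.8 kb. In replicate 2 a stretch of 256.6 kb at X:19795027-20051601 came second, between 339.5 kb and 235.3 kb at the leading places. How much of these stretches can be mapped by reads was not computed, and a stretch without a listed region need not lack H3K4me1.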

How the data were processed

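The authors deposited one list of enriched regions for each ChIP library and a combined list, giving a start, an end and a score per region. Coordinates are on FlyBase release 5, per the file headers. The aligner Bowtie, version 0.12.7, is named in the submitters' processing notes. The sources used here do not give the region caller, its threshold, how the input entered, how replicates were combined or the read depth, so the depth behind each value is unknown. Both replicate lists carry one experiment number, so the link of list to library was taken from the repository. The deposited scores were treated as log2 values: as the log2 of a constant times a ratio of whole numbers (denominators up to 20000, relative tolerance 2e-13) they gave 7601 of 7601, 7401 of 7401 and 8218 of 8219 regions in replicate 1, replicate 2 and the combined list, against at most 22 with natural or base 10 logarithms. The constant was chosen from the data, after an earlier search that passed fewer scores, as the one with most scores passing and then the smallest terms.

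Regions on X were those whose sequence is X, without 1 record named as depleted (which lies on 2L). Overlap meant at least 1 bp, distances ran between neighbouring regions after merging regions that touch, and windows started at base 1. Arm values are means of both replicate lists, and combined values are the authors' own. The members and lists were chosen with earlier results of these data known. Regions are named by rule: the 10 highest scores and 10 widest, the 3 strongest unmatched per replicate, and 3 each of stretches, runs and extreme windows. Planned gene lists have no result here, because the gene table is on release 6 and coordinates were not converted. It served for gene numbers per chromosome. The computation of the steps was checked on simulated lists, with 100% of 1410 overlaps recovered. Each simulated partner lay inside its original region, so this checks the computation only. It says nothing about how well the replicate lists match. Python 3.11.15, numpy 2.4.6, pandas 2.3.3 and scipy 1.17.1 were used.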

Additional observations from a re-analysis of the deposited data

Results flagged for a closer look

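The heterochromatic sequence XHet, which the release keeps apart from the assembled X and which none of the comparisons used, held 10 regions in the combined list. It was singled out only because it holds regions outside the comparisons, above the limit of 3 that a count of 0 allows, and no number was predicted for it. Its density, 49.0 regions per Mb, was below the 69.0 per Mb of X. Replicate 1 and replicate 2 had 9 each. XHet measures 204.1 kb, and the regions covered 17.7% of it by replicate 1, 13.4% by replicate 2 and 19.4% by the combined list. All 10 lay in its first 86568 bp, in places at 1020 to 8283 and at 43872 to 86568, and 9 of them were found in both replicates. The strongest was at 55563 to 59374 with a score of 1.17, and the one found in neither replicate, at 43872 to 45310, had the lowest score, 0.32.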

How the results depend on the processing

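No paired analysis was possible because only the 2 ChIP libraries have lists used here and no result comes from a test. Means of both replicates (except for the covered share) and all settings for the denominator were chosen after seeing the data, and the planned gene result was not run. Of 72 alternatives to 13 results, 3 turned the direction, 59 moved the value by more than the spread and 10 did not. The median width of X over the autosomes was 0.977 in the combined list, but 1.09 among the top 50% of regions by score and 1.12 after joining regions under 1 kb apart. The median score of X minus the autosomes was 0.038, but -0.0024 at 2 to 5 kb. The causes were not tested. With 1 replicate left out, the covered share of X (38.2%) was 31.1 to 32.9% and its ratio to the autosomes (1.10) 1.07 to 1.09. With the same omissions the density (69.0 per Mb) was 62.9 to 63.1 and the width ratio 0.998 in both cases (0.9978 to 0.9983). The score difference was then 0.099 to 0.10 and the length share from 10 kb (43.1%) 32.5 to 36.5%. The gap ratio (0.759) was then 0.789 to 0.815 and the range over windows (34.7) 30.1 to 30.5. The number of X regions among the 100 highest-scoring of the large arms (35) was then 36 to 42, and the denominator ratio (0.747) 0.741 to 0.743. The means of both replicates were 32.0%, 1.08, 63.0, 0.998, 0.0997, 34.5%, 0.802, 30.3, 39 and 0.742 in the same order. Of all large-arm regions X held 1547 of 8007 in the combined list, 1410 of 7438 in replicate 1 and 1414 of 7261 in replicate 2. The covered share of 2R alone was above that of X in both replicate lists. Among the top 50% by score the covered share was 30.7%, its ratio 1.17, the density 36.4, the score difference 0.059, the gap ratio 0.799, the share found in both lists (69.3%) 98.4% and the share of replicate 2 found in replicate 1 (93.8%) 91.6%. Without the last 2 Mb at the centromere the covered share was 40.3% and its ratio 1.12, and that ratio was 1.07 without 2L and 1.13 without 2R. Joining gave a density of 47.9 and a length share of 64.8%, and length thresholds of 5 and 20 kb gave 70.8% and 15.5%. The score difference was 0.098 for regions found in both lists, 0.063 as a difference of means, 0.063 under 2 kb, 0.074 at 5 to 10 kb and 0.095 from 10 kb. With 50% of a region covered, 66.5% were found in both lists, 86.0% of replicate 1 in replicate 2 and 92.4% of replicate 2 in replicate 1, and with 50% reciprocal overlap the last 2 were 79.4% and 79.1%. The gap ratio as a ratio of means was 0.919, and the range over windows was 45.6 in windows 0.5 times as long and 27.5 in windows 2 times as long. The denominator ratio was 0.714 at the median, 0.738 at the 75th percentile, and 0.741, 0.739 and 0.739 with the constant times 2, 3 and 1/2. Read depth is unknown, so what it limits cannot be stated.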
